A study of Homo sapiens with 6 samples.

Results

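The division of 1 cell into its daughters, cytokinesis, was followed by the levels of 10 of its genes in 6 libraries of the human erythroleukaemia line K562: KIF23, RACGAP1, ECT2, AURKB, PLK1, PRC1, ANLN, KIF20A, CIT and CDCA8. The list was set by name, with no threshold on a measured value but with earlier results of these data known. The genes are 10 of the 33367 genes summed and of the 14075 genes tested. All 10 passed the filter on low counts.

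K562 is an established cell line that makes embryonic and fetal globins. The series asked how the transcriptome of these cells responds to loss of CDAN1, which encodes codanin-1, a protein mutated in an inherited dyserythropoietic anaemia. Cells carried a doxycycline-inducible short hairpin RNA (shRNA), directed at CDAN1 in 2 clones named c1 and c2 or non-targeting (NT) in 1 line. All cells, controls included, were kept under 2 µg/ml puromycin, and all libraries were labelled day 4. The induced CDAN1 shRNA group held 2 libraries (c1 and c2 with 1 µg/ml doxycycline), and its controls were the 2 uninduced CDAN1 shRNA libraries (c1 and c2 without doxycycline), 1 NT library with doxycycline and 1 NT library without. Each clone is a single clonal line, and the NT construct is represented by 1 line, so construct and clone cannot be told apart between CDAN1 shRNA and NT cells.

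Cytokinesis is set up at the spindle midzone. PRC1 bundles antiparallel microtubules there, and the kinesin KIF23 with the GTPase-activating protein RACGAP1 forms centralspindlin, which recruits the exchange factor ECT2 so that RhoA is activated at the equator and a contractile ring assembles. The Aurora B kinase with CDCA8 (borealin), the kinase PLK1 and the kinesin KIF20A control that assembly, and anillin (ANLN) and citron kinase (CIT) hold the ring and the midbody ring together. Heterozygous KIF23 mutation is known in type III congenital dyserythropoietic anaemia and RACGAP1 mutation in a related form, disorders in which erythroblasts have several nuclei.

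Genes of this kind are transcribed mainly in G2 and mitosis, and many such promoters carry a CHR element (cell cycle genes homology region) near the start, often with CCAAT boxes upstream. RefSeq promoters (GRCh38.p14, 250 bases before to 50 after the start) were found for 9 of the 10 genes. RACGAP1 had no entry, and of the 2 entries each for ECT2 and AURKB the first was used. The letters TTTGAA or TTCGAA, searched on both strands as the CHR, were present in 7 of the 9, against 16.4% of all 35116 promoters of the same length. CCAAT, on either strand, was present in 8 of the 9 against 34.6%, and both motifs in 6 of the 9 against 6.38%. The 120 bases from 100 before to 20 after the start are shown for the 5 genes whose CHR lay within 60 bases before the start, with CHR and CCAAT matches in capitals, read 5′ to 3′ on the strand of the gene.
KIF23, chr15:69414249-69414368, plus strand: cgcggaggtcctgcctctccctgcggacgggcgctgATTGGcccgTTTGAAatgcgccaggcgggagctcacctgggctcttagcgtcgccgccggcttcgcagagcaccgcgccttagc
PLK1, chr16:23678789-23678908, plus strand: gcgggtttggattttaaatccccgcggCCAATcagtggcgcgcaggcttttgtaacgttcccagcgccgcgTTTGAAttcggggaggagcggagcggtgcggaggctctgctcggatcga
PRC1, chr15:90994516-90994635, minus strand: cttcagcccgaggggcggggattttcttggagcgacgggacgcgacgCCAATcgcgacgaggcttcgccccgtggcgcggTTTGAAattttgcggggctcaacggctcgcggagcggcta
ANLN, chr7:36389762-36389881, plus strand: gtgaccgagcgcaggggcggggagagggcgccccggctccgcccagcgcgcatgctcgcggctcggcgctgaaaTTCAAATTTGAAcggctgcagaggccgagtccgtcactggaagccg
CDCA8, chr1:37692416-37692535, plus strand: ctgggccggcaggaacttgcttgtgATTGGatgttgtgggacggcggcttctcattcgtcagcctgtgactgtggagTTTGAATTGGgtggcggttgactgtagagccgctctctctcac
The CHR began 55 bases before the start in KIF23, 29 in PLK1, 20 in PRC1 and 23 in CDCA8. ANLN held a CHR on each strand, at 26 and 20 bases before the start and touching end to end, and no CCAAT in the 300 bases. In CDCA8 the last base of the CHR is also the first of a CCAAT on the other strand. In ECT2 and CIT the CHR lay elsewhere in the window, at 115 and 208 bases before the start and again after it, and AURKB and KIF20A had CCAAT only. A match of letters is a description of these windows and not a measured binding site.

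The 6 libraries held 28318555 to 32352246 estimated reads, and a cytokinesis gene had 1699 to 8873 reads in a library. Erythroid markers summed to 14953 and 12075 CPM (reads relative to the library total, scaled by the TMM method) in induced c1 and c2, against 10840 to 15274 CPM in the controls, while the B cell marker MS4A1 and the neutrophil marker ELANE were at 0 in every library. Megakaryocyte markers differed by clone: their 5 genes summed to 12.1 and 14.5 CPM in c1, to 154 and 165 CPM in both c2 libraries, and to 34.4 and 41.0 CPM in both NT libraries, nearly all of it from ITGA2B, and their part in the differences between clones was not tested. CDAN1 itself had 17.0 CPM in induced c1 and 29.8 CPM in induced c2, against 37.0 CPM in c1 and 55.4 CPM in c2 without doxycycline, and 70.2 CPM in induced NT and 62.5 CPM in uninduced NT. It was lower in the induced library of each CDAN1 shRNA clone than in all controls, and the 2 uninduced clones were themselves below both NT libraries. With the clone as a block, edgeR put CDAN1 at −1.01 ± 0.09 (log2 fold change ± SE, adjusted p = 0.00285) in induced against uninduced clones.

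Per length of transcript, in TPM (abundance corrected for the length of each transcript) over the 6 libraries, PLK1 stood highest at 146 ± 9.55 (mean ± SD, n = 6), and AURKB (89.5 ± 4.52) and PRC1 (89.1 ± 21.0) followed with overlapping ranges. CDCA8 had 66.7 ± 4.89 TPM, within the range of PRC1, and RACGAP1 56.4 ± 3.25 TPM. KIF20A at 40.1 ± 3.95 TPM, ECT2 at 36.5 ± 3.46 TPM and ANLN at 34.0 ± 5.60 TPM had overlapping ranges. Within each library KIF20A was above both ECT2 and ANLN. KIF23 had 28.1 ± 4.57 TPM and CIT 22.3 ± 1.89 TPM, the lowest means of the 10. The range of KIF23 (22.6 to 33.5 TPM) overlapped those of ECT2 (32.2 to 41.1 TPM), ANLN (27.8 to 40.6 TPM) and CIT (19.0 to 24.6 TPM), and in uninduced NT KIF23 was above ANLN. Per read, all 10 lay between the 73.0 and the 95.3 percentile of mean CPM among the genes tested.

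None of the 10 genes passed the edgeR test for doxycycline or for the knockdown. Without the clone as a block 0% of all genes tested passed it, and with the block 0.0426% to 1% did. The unblocked fits did not call even the targeted gene CDAN1 (−1.27 ± 0.32 for knockdown against all controls, unadjusted p = 0.00622). A fold change of that size could thus go uncalled in them. Between clones 3 to 6 of the 10 genes passed the test, where 21.1% to 27.8% of all genes tested did, so the same contrast was seen over all genes. KIF23 and PRC1 were lower in c1 than in c2 and NT, and ANLN and ECT2 were higher in c1. The levels below are in TMM-scaled CPM, and the plot of levels by library shows every value.

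**Figure D1:**
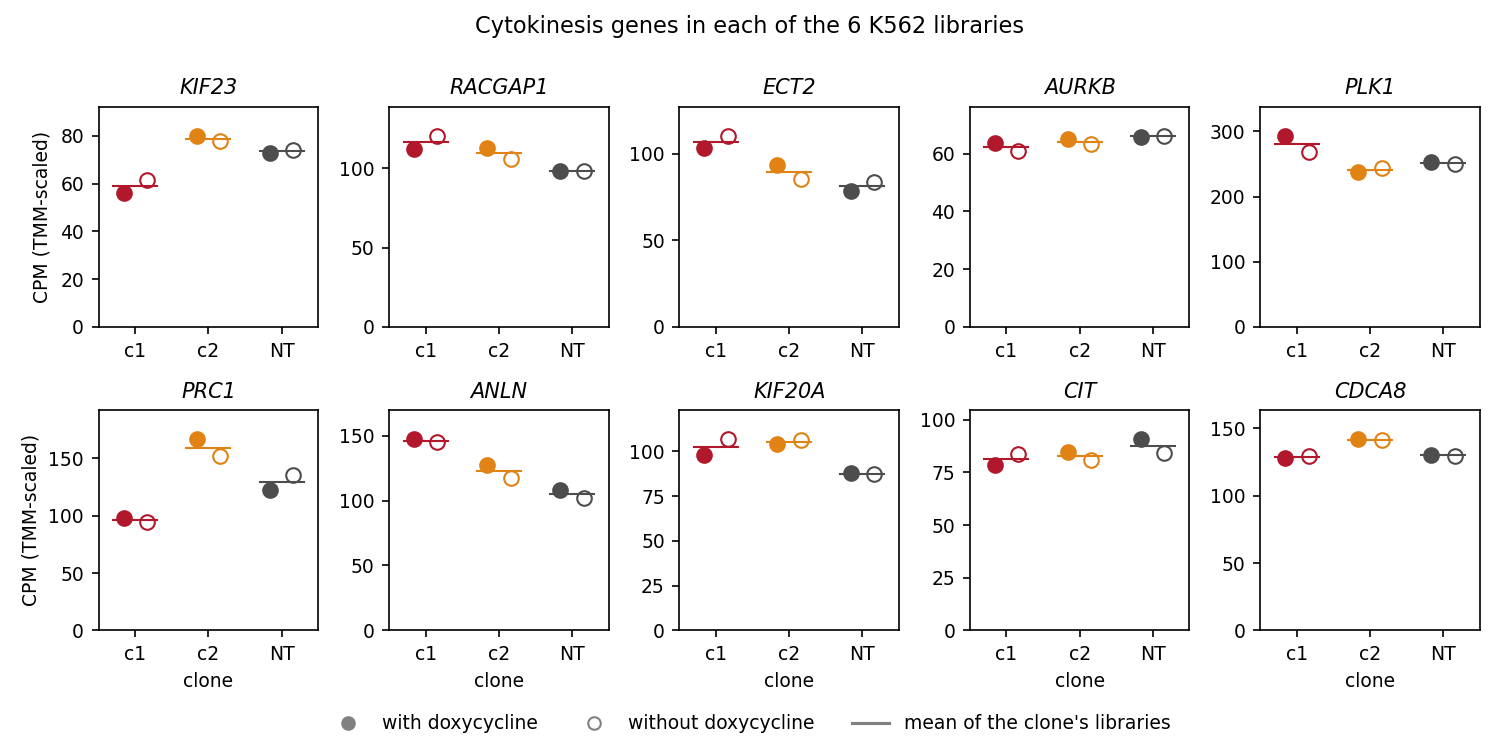
TMM-scaled CPM (y axis, from 0) of the 10 cytokinesis genes in clones c1, c2 and NT (x axis), 1 panel a gene, with filled points for libraries with doxycycline, open points for libraries without, and a line at the mean of the 2 libraries of a clone. The c1 points of KIF23 (56.2 and 61.75 CPM) and PRC1 (98.25 and 94.5 CPM) lie below all others of those genes, and within a clone filled and open points lie close together.

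KIF23, the kinesin of centralspindlin, lies at chr15:69414246-69448427 (GRCh38). It had 56.2 CPM in induced c1 and 80.1 CPM in induced c2, against 61.75 CPM in uninduced c1, 77.7 CPM in uninduced c2, 72.8 CPM in induced NT and 74.1 CPM in uninduced NT. Both c1 libraries were below the other 4, and the 2 induced libraries of the CDAN1 shRNA clones stood at either end of the range. RACGAP1, its partner, had 112 CPM in induced c1 and 112 CPM in induced c2, against 120.4 CPM in uninduced c1, 106 CPM in uninduced c2, 98.0 CPM in induced NT and 98.2 CPM in uninduced NT. Both NT libraries were the lowest, and induced and uninduced libraries of the CDAN1 shRNA clones overlapped. The TPM of KIF23 relative to that of RACGAP1 was 0.383 in induced and 0.394 in uninduced c1, 0.572 in induced and 0.575 in uninduced c2, and 0.506 in induced and 0.574 in uninduced NT. The 2 genes of centralspindlin thus stood in a lower ratio in c1 than in the other cells, with and without doxycycline.

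ECT2, the exchange factor for RhoA, had 103 CPM in induced c1 and 93.5 CPM in induced c2, against 110.4 CPM in uninduced c1, 85.4 CPM in uninduced c2, 78.7 CPM in induced NT and 83.85 CPM in uninduced NT. The order of the clones was c1, c2, NT with no overlap. PLK1, the mitotic kinase that primes RACGAP1 to bind ECT2, had 293 CPM in induced c1 and 238 CPM in induced c2, against 268 CPM in uninduced c1, 244.5 CPM in uninduced c2, 252.6 CPM in induced NT and 250.5 CPM in uninduced NT. Its c1 libraries were above the other 4, the reverse of KIF23.

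AURKB, the kinase of the chromosomal passenger complex, varied least, with 63.8 CPM in induced c1 and 65.0 CPM in induced c2, against 60.8 CPM in uninduced c1, 63.2 CPM in uninduced c2, 65.9 CPM in induced NT and 66.25 CPM in uninduced NT. Its highest library was 1.09 times its lowest, and NT stood slightly above all others. CDCA8, which anchors that complex, had 128 CPM in induced c1 and 142 CPM in induced c2, against 129.7 CPM in uninduced c1, 141 CPM in uninduced c2, 130.5 CPM in induced NT and 129.6 CPM in uninduced NT. Both c2 libraries were above the other 4, which lay close together.

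PRC1, the microtubule bundler at chr15:90966038-90995629 (GRCh38), varied most. It had 98.25 CPM in induced c1 and 167 CPM in induced c2, against 94.5 CPM in uninduced c1, 152 CPM in uninduced c2, 122 CPM in induced NT and 136 CPM in uninduced NT. The clones did not overlap, c1 lowest and c2 highest, and the highest library was 1.77 times the lowest. KIF20A, a kinesin that brings PLK1 to the midzone, had 98.2 CPM in induced c1 and 104 CPM in induced c2, against 107 CPM in uninduced c1, 106.5 CPM in uninduced c2, 87.8 CPM in induced NT and 87.2 CPM in uninduced NT. Both NT libraries were below the other 4.

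ANLN, the scaffold that links RhoA, actin and septins, had 147 CPM in induced c1 and 127 CPM in induced c2, against 145 CPM in uninduced c1, 117 CPM in uninduced c2, 108 CPM in induced NT and 102 CPM in uninduced NT. As for ECT2, the order was c1, c2, NT with no overlap. CIT, citron kinase of the midbody, had 78.6 CPM in induced c1 and 84.9 CPM in induced c2, against 83.75 CPM in uninduced c1, 80.85 CPM in uninduced c2, 90.9 CPM in induced NT and 84.1 CPM in uninduced NT. Its induced and uninduced libraries overlapped.

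For the knockdown, the 2 induced CDAN1 shRNA libraries were set against the 4 control libraries together, as the design text of the series does. None of the 10 genes passed the test: 0 of 10 were called by edgeR (adjusted p under 0.05), where 0% of the 14075 genes tested were called, and 0 of 10 had an unadjusted p under 0.05 (322 genes did). DESeq2 and limma voom called 0 of 10 as well, and 22 and 0 of all genes. The fitted log2 fold changes of the 10 ran from −0.07 to 0.22 with a median size of 0.069, against a median size of 0.12 over all genes tested. With the clone as a block 0 of 10 were called, where 0.0426% of genes were, and no gene's interval of 2 SE reached beyond −0.20 or 0.23 on the log2 scale, which is 1.18-fold. Without the block those intervals reached −0.43 and 0.58. In that blocked fit the NT libraries enter only the spread, since both count as controls. Its fold changes are therefore those of induced against uninduced c1 and c2, given below (CDAN1 −1.01 in both), and are not a separate result. The fit leaves any effect of doxycycline itself in the knockdown term. With doxycycline as a further term the blocked fold changes ran from −0.12 to 0.25 and their intervals reached −0.38 and 0.47, or 1.39-fold. In it 0 of 10 genes and 19 of all genes were called. That fit is the same as the blocked test of the CDAN1 clones' response against the NT response, given below.

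Doxycycline itself was compared over all 3 lines, 3 libraries with against 3 without. In edgeR 0 of 10 genes were called, where 0% of genes tested were, and 0 of 10 had an unadjusted p under 0.05 (217 genes did). DESeq2 and voom called 0 of the 10, and 6 and 0 of all genes. The fitted changes ran from −0.05 to 0.07, a median size of 0.031 against 0.099 over all genes. With the clone as a block 0 of 10 were called, against 0.128% of genes, and intervals of 2 SE stayed within −0.15 and 0.16, or 1.12-fold.

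Within the CDAN1 shRNA clones, induced against uninduced, edgeR called 0 of 10 genes and 0% of genes tested, with 0 of 10 at an unadjusted p under 0.05 (207 genes). DESeq2 and voom called 0 of the 10, and 2 and 0 of all genes. Fitted changes ran from −0.08 to 0.10, with a median size of 0.043 against 0.118 over all genes. With the clone as a block edgeR called 141 genes, 1% of those tested, and 0 of the 10, whose intervals of 2 SE stayed within −0.21 and 0.23, or 1.17-fold. The targeted gene CDAN1 was among the 141, and edgeR did not call it without the block (−0.98 ± 0.35, unadjusted p = 0.0456).

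The responses of the single lines, each 1 library against 1 and so without a test, were small and mixed in sign. Of the 10 genes, 4 had the same sign in c1 and c2 and 6 opposite signs. Between its induced and uninduced libraries c1 differed by −0.14 (KIF23) to 0.13 (PLK1) on the log2 scale, c2 by −0.04 (PLK1) to 0.13 (PRC1), and NT by −0.15 (PRC1) to 0.11 (CIT). Above 0 were 4 genes in c1, 8 in c2 and 5 in NT. ANLN was higher with doxycycline in all 3 lines, by 0.02 in c1, 0.12 in c2 and 0.08 in NT. AURKB (0.07 and 0.04) and PRC1 (0.06 and 0.13) were higher with it in c1 and c2, and KIF20A was lower (−0.12 and −0.03), while in NT these 3 lay on the other side of 0. KIF23, RACGAP1, ECT2 and CIT were lower with doxycycline in c1 and higher with it in c2, at −0.14 and 0.04 for KIF23, −0.10 and 0.09 for RACGAP1, −0.10 and 0.13 for ECT2, and −0.09 and 0.07 for CIT. The median size over the 10 was 0.093 for c1, 0.057 for c2 and 0.019 for NT, against 0.168, 0.114 and 0.12 over all genes tested. The difference between the responses was tested as the CDAN1 clones' response minus the NT response. In edgeR 0 of 10 genes were called, where 0% of genes tested were, and 0 of 10 had an unadjusted p under 0.05 (79 genes did). DESeq2 and voom called 0 of the 10, and 5 and 0 of all genes. PRC1 had the highest fitted difference at 0.26 ± 0.62 (SE), and 0.25 ± 0.11 with the clone as a block (adjusted p = 1), a fit that called 0.135% of genes and 0 of the 10. Over the 10 genes the intervals of 2 SE reached −0.38 and 0.47 with the block, or 1.39-fold, and −0.98 and 1.49 without it, or 2.81-fold. The blocked fit is the one given above for the knockdown with doxycycline as a further term.

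**Figure D2:**
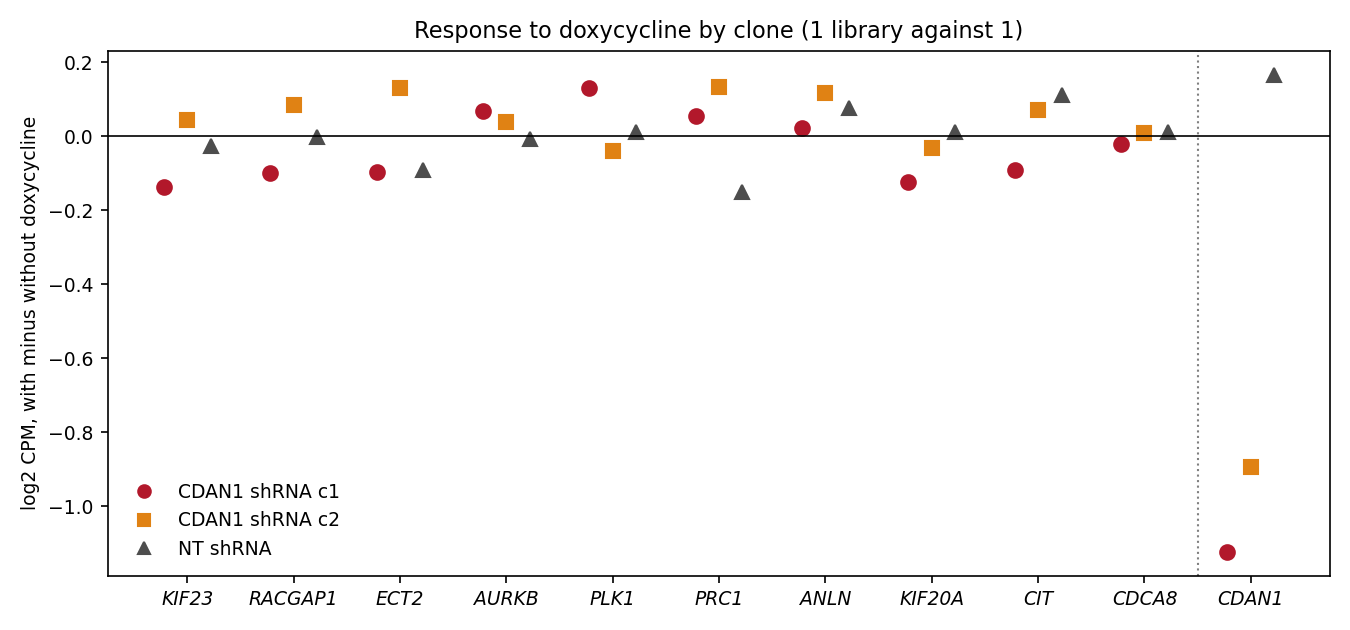
Log2 CPM with minus without doxycycline (y axis) for each cytokinesis gene and, right of the dotted line, for CDAN1 (x axis), in clone c1 (circles), clone c2 (squares) and NT (triangles), each point 1 library against 1. The 10 genes stay between −0.15 and 0.13 in every line, while CDAN1 is at −1.12 in clone c1, −0.90 in clone c2 and 0.17 in the NT line.

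The clones were compared over both doxycycline states, 2 libraries each, with doxycycline as a covariate. The 2 libraries of a clone come from 1 clonal line, so these p-values measure the spread between such libraries, which may be technical, and describe these clones. Between c1 and c2 edgeR called 5 of the 10 genes, where 26.8% of the genes tested were called. Of these, 3 were higher in c1 (background 11.9%) and 2 were lower (background 14.9%). PRC1 was lower in c1, averaging 96.4 ± 2.66 CPM there and 159 ± 10.5 CPM in c2 (mean ± SD, n = 2 each), a log2 fold change of −0.73 ± 0.08 (SE, adjusted p = 0.000507). KIF23 was lower in c1, averaging 59.0 ± 3.93 CPM there and 78.9 ± 1.70 CPM in c2, or −0.42 ± 0.07 (adjusted p = 0.00448). ANLN, ECT2 and PLK1 were higher in c1 by 0.26 ± 0.06, 0.26 ± 0.07 and 0.22 ± 0.06 (adjusted p = 0.0123, 0.0376 and 0.0286). RACGAP1, AURKB, KIF20A, CIT and CDCA8 were not called, and their intervals of 2 SE lay between −0.24 and 0.22.

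Between c1 and NT edgeR called 6 of the 10 genes, where 27.8% of the genes tested were called, 4 higher in c1 (background 13.8%) and 2 lower (background 14%). ANLN was higher in c1 with 146 ± 1.71 CPM in c1 and 105 ± 3.96 CPM in NT, a log2 fold change of 0.48 ± 0.06 (adjusted p = 0.00105). ECT2, KIF20A and RACGAP1 were also higher, by 0.40 ± 0.07, 0.23 ± 0.06 and 0.25 ± 0.06 (adjusted p = 0.00736, 0.0287 and 0.0257). PRC1 and KIF23 were lower in c1, at −0.42 ± 0.08 and −0.32 ± 0.07 (adjusted p = 0.00613 and 0.0149). KIF23 thus differed from NT in the direction opposite to that of RACGAP1. Between c2 and NT edgeR called 3 of the 10 genes, all higher in c2, where 21.1% of the genes tested were called, 11.8% higher and 9.21% lower. These were PRC1 (0.31 ± 0.07, adjusted p = 0.0251), KIF20A (0.27 ± 0.06, adjusted p = 0.0194) and ANLN (0.22 ± 0.06, adjusted p = 0.0281). The c1 and c2 comparisons with NT share the NT libraries.

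Some of these calls rest on the way reads were normalised or on 1 library. With the average transcript length of each gene as an offset, 3 genes were called between c1 and c2 (PRC1, KIF23 and ANLN), 2 between c1 and NT (PRC1 and ANLN) and 0 between c2 and NT. PRC1 and KIF23 were called between c1 and c2 with any 1 library left out, but the 3 genes called higher in c1 fell to 0 without uninduced c2 and to 1 (ECT2) without induced c2. ECT2 was not called there without uninduced c1, nor PLK1 without induced c1. Without uninduced NT, 3 genes were called between c1 and NT (PRC1, ANLN and ECT2). Without induced NT, 4 were (KIF23 as well). KIF23 was not called there without induced c1, RACGAP1 was not called without uninduced c1 or either NT library, and KIF20A was called only with induced c1 left out, of the 6 libraries left out in turn. Between c2 and NT 1 gene was called without either NT library or without uninduced c2, and 0 without induced c2.

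**Figure D3:**
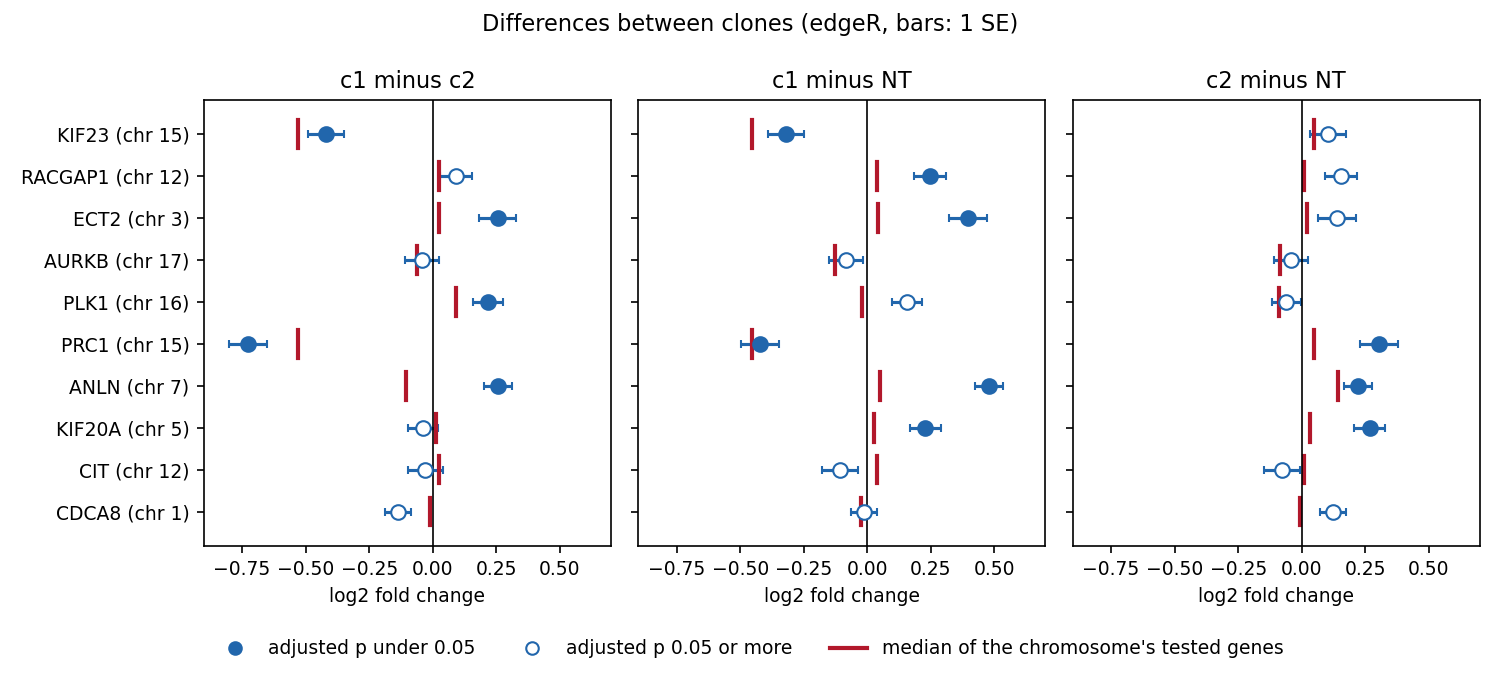
Log2 fold changes between clones (x axis, edgeR, bars 1 SE) of the 10 cytokinesis genes (y axis, with the chromosome), in 3 panels for c1 minus c2, c1 minus NT and c2 minus NT, filled where the adjusted p is under 0.05, with a red tick at the median of all tested genes of the same chromosome. The ticks of KIF23 and PRC1, both on chromosome 15, lie at −0.53 and −0.46 in the 2 panels with c1 and at 0.05 in c2 minus NT.

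KIF23 and PRC1, the 2 genes called lower in c1, are the 2 of the 10 that lie on chromosome 15, and CDAN1 lies there too. The 492 tested genes of chromosome 15 had a median log2 fold change of −0.53 between c1 and c2 and −0.46 between c1 and NT, and of 0.05 between c2 and NT. The medians of the other 22 chromosomes ran from −0.11 to 0.09, from −0.12 to 0.13 and from −0.09 to 0.14 in the same comparisons. On chromosome 15, 300 genes (61.0%) were called lower between c1 and c2 and 277 (56.3%) between c1 and NT, against 29 between c2 and NT. On the other chromosomes 7.0% to 24.5% and 8.4% to 24.2% were called lower in the 2 comparisons with c1. The lower level was present with doxycycline (median −0.47 for c1 minus NT) and without it (−0.41), and in each of the 4 segments of 20 megabases with 71 genes or more (medians −0.51 to −0.41).

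Set against the median of their chromosome, which was done after the data were seen, KIF23 stood at 0.11 (c1 minus c2) and 0.14 (c1 minus NT), where its fold changes were −0.42 and −0.32. PRC1 stood at −0.20 and 0.03, where its fold changes were −0.73 and −0.42. KIF23 was at the 65.4 and 69.1 percentile of chromosome 15 genes in these comparisons and PRC1 at the 25.8 and 54.3 percentile. In c2 minus NT, PRC1 stood at 0.26 above the median of the chromosome, close to its fold change of 0.31. The part of the chromosome in the levels of KIF23 and PRC1 was not tested beyond this. The 4 genes called higher in c1 than in NT (ANLN, ECT2, KIF20A and RACGAP1) lie on chromosomes 7, 3, 5 and 12, whose medians in that comparison ran from 0.03 to 0.05. In c2 minus NT chromosome 7 had the highest median of any chromosome, at 0.14. ANLN stood at 0.08 above it, where its fold change was 0.22, at the 60.3 percentile of that chromosome. KIF20A stood at 0.24 above the median of chromosome 5 there, close to its fold change of 0.27.

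**Figure D4:**
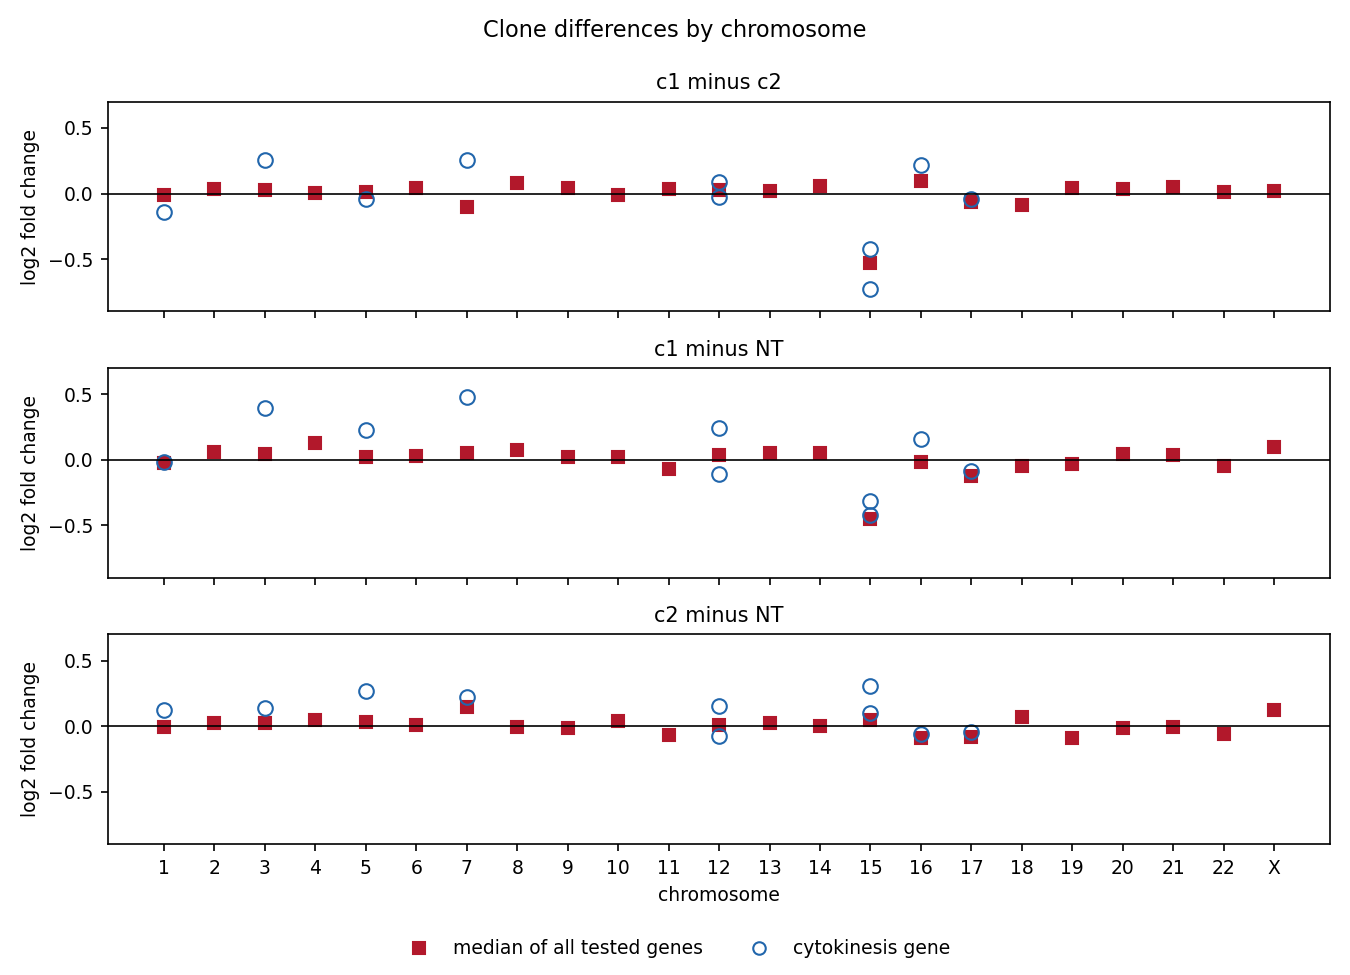
Median log2 fold change of all tested genes of each chromosome (red squares) and the fold changes of the 10 cytokinesis genes (open circles) by chromosome (x axis), for c1 minus c2, c1 minus NT and c2 minus NT (y axis, log2). Chromosome 15 stands at −0.53 and −0.46 in the upper panels, with KIF23 and PRC1 beside it, and at 0.05 in the lowest.

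The 6 libraries are 2 from each of 3 lines, so a correlation over them mainly compares the lines. As a description over these 6 libraries, the log2 CPM of KIF23 went with that of PRC1 (r = 0.938) and against that of PLK1 (r = −0.982), and RACGAP1 went with ECT2 (r = 0.939) and ANLN (r = 0.928). The 2 genes of centralspindlin had r = −0.491. Against the mean profile of the 10, single members had r from −0.383 (AURKB) to 0.842 (KIF20A), so that no single profile describes them. Among 6145 genes with a mean of at least 10 CPM and a range of at least 0.3 on the log2 scale, the 6 most like that mean profile were ABCC4, ITM2B, IFT80, IPO7, SRRT and PAQR8 (r = 0.996 to 0.982), and the 3 least like it were ALKBH8, FEN1 and FAM83H (r = −0.979 and −0.975 for the last 2). There were 117 genes with r above 0.9.

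The estimates also divide the reads of a gene among its transcripts. KIF23 is known in a long form, CHO1, which holds an exon whose product binds actin, and a shorter form without it, MKLP1. That exon has 312 bases at chr15:69440768-69441079 (GRCh38, GENCODE 29), a multiple of 3. Its ends, which distinguish the long form, read as follows on the plus strand.
First 30 bases: ctttctagtaactatattgctcagatttcc
Last 30 bases: atagaaatagaagaggatcattgcggcagg
Of the 13 listed KIF23 transcripts, 3 hold the exon, 3 skip it and 7 do not span it. Transcripts with the exon had 38.4% of the TPM of both kinds in induced c1, 43.2% in induced c2 and 48.7% in induced NT, against 35.5% in uninduced c1, 33.5% in uninduced c2 and 42.3% in uninduced NT. The share was higher with doxycycline in each line, NT included, and c1 and c2 stood below NT in the same state. By estimated reads the shares were 40.0% (95% Wilson interval 37.6 to 42.4) in induced c1, 44.7% (42.7 to 46.8) in induced c2 and 50.1% (47.8 to 52.4) in induced NT. In the uninduced libraries c1 had 36.7% (34.5 to 39.1), c2 had 34.9% (32.9 to 36.9) and NT had 43.9% (41.7 to 46.2). The intervals cover counting error only, and most reads of the gene lie outside the exon and are shared by both kinds, so the division rests on the model of the quantifier.

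**Figure D5:**
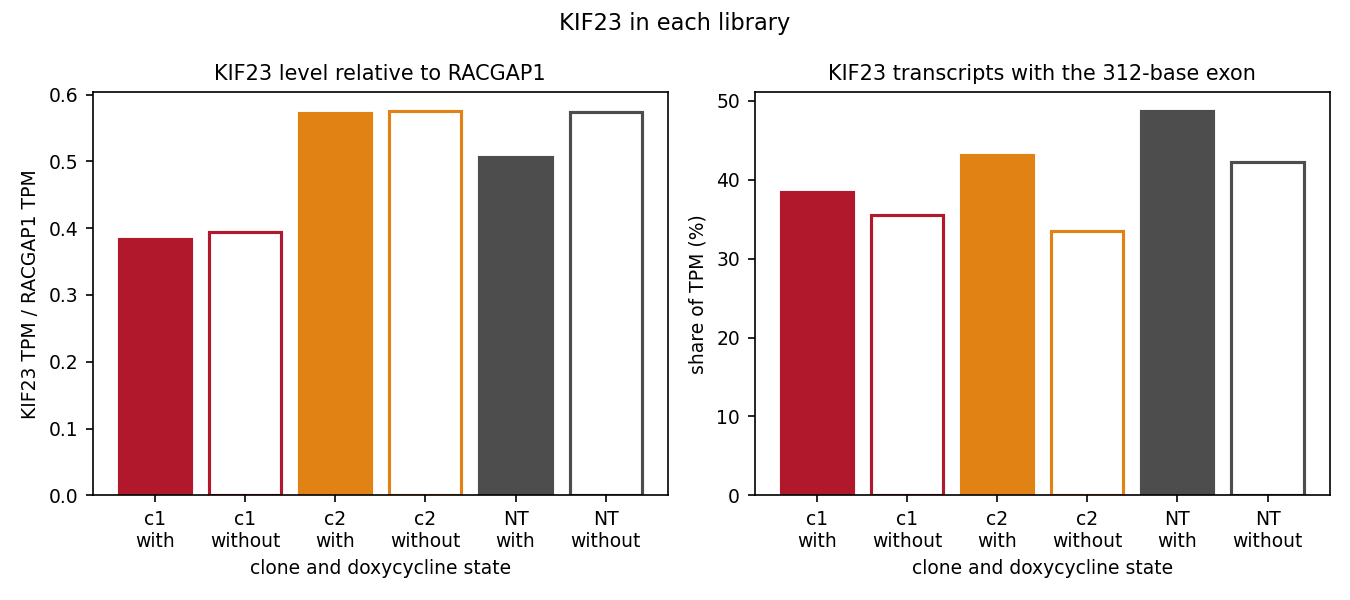
Left, TPM of KIF23 divided by TPM of RACGAP1 (y axis) in each library (x axis); right, the share of KIF23 TPM (%) in transcripts with the 312-base exon, among those that hold or skip it. Filled bars are libraries with doxycycline and open bars those without. On the left c1 is at 0.383 and 0.394 and all others at 0.506 or more; on the right the filled bar of each line is above its open bar.

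For the other genes 1 transcript mostly held the reads. PLK1-201 had 96.1% of the TPM of PLK1 on average, KIF20A-201 89.4% and ANLN-201 78.5%, and the 2469-base transcript of CDCA8 had 83.7%. RACGAP1 had 28 listed transcripts, with RACGAP1-201 at 47.5% of TPM and 64.2% of reads. CIT showed how the unit matters: CIT-203, its 8708-base coding transcript, had 43.4% of the TPM but 88.9% of the reads, while the 497-base noncoding CIT-213 had 24.9% of the TPM and 1.48% of the reads. The 3032-base transcript of PRC1 likewise had 39.9% of TPM and 70.1% of reads, and AURKB-214 had 44.2% of TPM and 54.9% of reads.

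Other genes of the same process were counted from lists. In edgeR none of the 7 lists had a called gene in any of the 4 comparisons that involve doxycycline, where 0% of all genes tested were called. With the clone as a block, induced against uninduced clones gave CDAN1 and 2 more of the 125 genes in these lists. In that fit 1% of all genes tested were called. RBL1, which encodes the pocket protein p107, had 33.3 CPM in induced c1 and 34.3 CPM in induced c2, against 47.9 CPM in c1 and 48.4 CPM in c2 without doxycycline, with 44.0 and 45.0 CPM in NT (−0.51 ± 0.09, adjusted p = 0.0283). ALAS2, the erythroid enzyme of haem synthesis, was higher by 0.37 ± 0.07 (adjusted p = 0.0484). Both are named after their values were seen. CDAN1 was the only list gene called in the blocked fits of knockdown against all controls (−1.01 ± 0.10, adjusted p = 0.0275) and of the clones' response against the NT response (−1.17 ± 0.16, adjusted p = 0.0286). These fits called 0.0426% and 0.135% of all genes tested, and the first measures the same difference as induced against uninduced clones.

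Between clones, genes of the lists differed in both directions, as the 10 genes did. Their counts stand against 26.8% of all genes tested called between c1 and c2, 27.8% between c1 and NT and 21.1% between c2 and NT. Of 11 other chromosomal passenger and midzone genes, 2 were higher and 2 lower in c1 than in c2 (36.4%). In c1 against NT 2 were higher and 0 lower (18.2%, under the share of all genes), and in c2 against NT 2 were higher and 2 lower (36.4%). BIRC5, the survivin subunit of the passenger complex, had 211 CPM in induced and 197 CPM in uninduced c1, 132 and 129 CPM in induced and uninduced c2, and 159 and 167 CPM in induced and uninduced NT. It was higher in c1 and lower in c2 than in NT, at 0.32 ± 0.06 and −0.32 ± 0.06 (adjusted p = 0.00658 and 0.00822). AURKC, a close relative of AURKB with which reads could be shared, was higher in c2 than in NT by 1.95 ± 0.12 (adjusted p = 5.64e-05), with 38.1 and 39.8 CPM in c2 against 11.0 and 9.16 CPM in NT. Of 24 other contractile ring genes, 3 were higher and 8 lower in c1 than in c2, 6 higher and 4 lower in c1 than in NT, and 8 higher and 1 lower in c2 than in NT, which is 45.8%, 41.7% and 37.5% of the list. SEPT6, a septin, and ROCK2, a kinase that RhoA activates, were higher than in NT in both clones, at 0.52 ± 0.08 and 0.35 ± 0.06 in c1 (adjusted p = 0.00436 and 0.00663) and at 0.51 ± 0.08 and 0.37 ± 0.06 in c2 (adjusted p = 0.0056 and 0.00659). Of 20 abscission genes of the ESCRT machinery, 3 were higher and 2 lower in c1 than in c2, 3 higher and 2 lower in c1 than in NT, and 1 higher and 2 lower in c2 than in NT, which is 25%, 25% and 15% of the list, near or under the share of all genes.

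Of 30 other genes of G2 and mitosis, 6 were higher and 6 lower in c1 than in c2, 7 higher and 4 lower in c1 than in NT, and 1 higher (CENPF, 0.22 ± 0.06, adjusted p = 0.0376) in c2 than in NT, which is 40.0%, 36.7% and 3.33% of the list. Their median was 0.083, 0.044 and 0.021 in these comparisons, against 0.011, −0.002 and −0.001 over all genes tested. Of 15 regulators of mitotic genes, 1 was higher and 1 lower in c1 than in c2 (13.3% of the list), and CDKN1A, which encodes the cell cycle inhibitor p21, was the only gene called against NT. It had 40.2 CPM in induced and 32.0 CPM in uninduced c1, 43.2 and 42.2 CPM in induced and uninduced c2, and 64.2 and 66.7 CPM in induced and uninduced NT. Its log2 fold change was −0.86 ± 0.10 in c1 and −0.62 ± 0.10 in c2 (adjusted p = 0.0012 and 0.0055). Of 19 S phase genes, 1 was higher and 4 lower in c1 than in c2, 2 higher and 3 lower in c1 than in NT, and 2 higher and 0 lower in c2 than in NT, which is 26.3%, 26.3% and 10.5% of the list, near or under the share of all genes. The list named for dyserythropoietic anaemia has 6 genes, among them the targeted CDAN1 and the haem synthesis gene ALAS2. Of these 6, 1 was higher and 3 lower in c1 than in NT (66.7%, against 27.8% of all genes tested). ALAS2 was higher by 0.96 ± 0.09 (adjusted p = 0.000429), and CDAN1, SEC23B (adjusted p = 0.0486) and KLF1 were lower. In c1 against c2 only ALAS2 was called, higher in c1, and in c2 against NT only KLF1, lower in c2. Each is 16.7% of the list, under the share of all genes.

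Chromosome 15 holds 7 tested genes of these lists beside CDAN1, and 6 of the 7 were called lower in c1 than in c2. So were 61.0% of all 492 tested genes of the chromosome, and 17 of 117 list genes on other chromosomes. The 6 list genes are NUSAP1, ARHGAP11A, ZFYVE19, ULK3, CCNB2 and BUB1B, with fold changes of −0.82 (ZFYVE19, of the abscission checkpoint) to −0.44 (ARHGAP11A, a regulator of RhoA). CDIN1 was not called (−0.12 ± 0.11, adjusted p = 0.432). In c1 against NT 5 of the 7 were called lower, as were 56.3% of all tested genes of the chromosome and 11 of 117 list genes elsewhere. NUSAP1 (−0.22 ± 0.07, adjusted p = 0.0598) and CDIN1 were not called. In c2 against NT 0 of the 7 were called lower and NUSAP1 was higher (0.26 ± 0.07, adjusted p = 0.0431).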

How the data were processed

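Messenger RNA was measured by RNA sequencing in 6 K562 libraries, made from total RNA with the NEBNext Ultra kit, per the labels' protocols. Salmon 1.5.2 had estimated transcript abundance, with GRCh37 as the build, per the submitters' processing notes. Each deposited table gives an expected count of reads per transcript and a TPM value, per the file headers. Neither annotation nor trimming nor strand is given in the sources used, so antisense or overlapping genes and close relatives such as AURKB and AURKC are uncertain.

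Of 167268 transcripts, 151039 (90.3%) matched GENCODE 29 by identifier. The unmatched rest, with 6.23% to 6.50% of reads, stayed out of library sizes and tests. Expected counts were summed per gene and rounded. Coordinates are those of GENCODE 29 (GRCh38), not of the authors' build. Tests used edgeR 4.0.16 (quasi-likelihood, two-sided, TMM, filterByExpr with a smallest group of 2, Benjamini-Hochberg over 14075 genes, threshold 0.05) in R 4.3.3, with DESeq2 1.42.0 and limma voom 3.58.1 as alternatives. Log2 CPM used a prior count of 2. The 10 genes and the lists were chosen with earlier results of these data known.

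Groups and clones were read from the titles; the clone that titles call c2 has C3 in its file names. Each line gave 1 library with and 1 without doxycycline, so the line pairs the samples. Deviations from the means of the doxycycline states correlated within a line (r = 0.608 in NT, 0.679 in c1 and 0.741 in c2). Fits with the line as a replicate block are given beside the unblocked ones. They keep few residual degrees of freedom and lean on the spread shared across genes. No label says that libraries are separate cultures of separate origin, so p-values may measure technical spread. Named genes are the 10 members, CDAN1, and of each list the called genes or, if 0 or over 6 were called, the 3 highest and 3 lowest with a mean of at least 10 CPM. ACTG1 and UHRF1 of the lists were not analysed here.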

Additional observations from a re-analysis of the deposited data

Results flagged for a closer look

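CDCA8, the borealin subunit of the chromosomal passenger complex, had 1 sample far from the others among the 4 controls of the knockdown. Uninduced c2 had 141 CPM, against 130.5 CPM in induced NT, 129.7 CPM in c1 without doxycycline and 129.6 CPM in uninduced NT. The gap to the nearest sample made up 0.918 of the range of the 4, above Dixon's critical value for 4 samples. Chance alone marks about 1 in 20 such groups, and 10 genes were looked at. Induced c2, which is not a control, had 142 CPM.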

How the results depend on the processing

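In the 4 comparisons that involve doxycycline, 0 of the 10 genes were called under every alternative run. Alternatives were RLE size factors, no filter, transcript length as an offset, DESeq2, limma voom, each library left out where the contrast could be fitted, and the clone as a replicate block. The knockdown with the block and doxycycline as a further term called 0 of 10, and 19 genes in all. It is the same fit as the blocked difference in response. The blocked knockdown without that term has the fold changes of induced against uninduced clones. With the block the counts over all genes were 6 for knockdown against all controls, 18 for doxycycline, 141 for induced against uninduced clones and 19 for the difference in response, against 0 in each unblocked fit. No blocked fit was possible between clones, since the clone is what is compared. With transcript length as an offset the called members numbered 3 (c1 against c2), 2 (c1 against NT) and 0 (c2 against NT), in place of 5, 6 and 3, and the genes called in all 2312, 2369 and 1792, in place of 3766, 3918 and 2964. With 1 library left out the called members numbered 2 to 5, 3 to 5 and 0 to 3. Against the median of their chromosome KIF23 turned to 0.109 (c1 minus c2) and 0.137 (c1 minus NT) and PRC1 to 0.034 (c1 minus NT). With 1 library left out the sign turned for KIF20A (−0.09 to 0.017) and CIT (−0.115 to 0.062) in c1 minus c2 and PLK1 (−0.114 to 0.008) in c2 minus NT, 3 values that no fit called. The cause of these shifts was not tested. The uncalled fitted extremes also widened with 1 library left out. The knockdown extremes reached −0.36 (without induced c2) and 0.401 (without induced c1), and those of doxycycline −0.208 (without induced c2) and 0.217 (without uninduced c1). Those of induced against uninduced clones reached −0.327 (without induced c2) and 0.508 (without uninduced c2), and those of the difference in response −0.285 (without induced c2) and 0.659 (without uninduced c2). Of the promoter motifs, CHR was in 7 and CCAAT in 8 of 9 promoters in the 250 bases before the start as well. Each of the 10 genes had 1699 reads or more in every library, but each clone had 2 libraries.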
